A study of Mus musculus with 10 samples.

Results

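The 36 genes described here mark cells of the myeloid lineage, arm them for phagocytosis or build their oxidative burst. They are the rows of the deposited gene table whose name is on a list of pan-myeloid, phagocyte, NADPH oxidase and monocyte genes, 36 of the 54532 genes in the table, and each symbol matched 1 row. They were grouped by role into 9 genes common to leukocytes or myeloid cells, 3 leukocyte integrins, 5 adapters and receptors that signal through tyrosine motifs, 3 Fc gamma receptors, 6 lysosomal and activated-phagocyte genes, 3 scavenger and perivascular macrophage receptors, 5 genes of the NADPH oxidase and 2 monocyte genes.

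The mice were 2-month-old BALB/c, an albino inbred strain whose retina is not shielded by pigment. All of them were kept in the dark for 12 hr. Over the following day 5 retinas were from mice under 200 lux, called normal light (NL), and 5 were from mice under 15000 lux in cages that do not reflect light, called light damage (LD). The neural retina was taken whole, without a sort for any cell type, and the labels do not say whether any of the retinas came from the same mouse.

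Microglia are the resident macrophages of the retina. At rest they sit in the synaptic layers and survey them with fine processes, and after photoreceptor injury they retract these, move toward the outer retina, and take up dying cells, while monocytes can enter from the blood. A phagocyte recognises its target through Fc receptors, integrins, lectins and scavenger receptors, several of which have no signalling tail of their own and rely on the small membrane adapters TYROBP and FCER1G. Engulfed material goes to the lysosome, and the NADPH oxidase complex makes superoxide at the phagosome membrane.

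Expression was measured by RNA-seq as FPKM, fragments per kilobase of gene scaled to library size, so levels can be compared between genes. The reads behind each value could be recovered from the deposited values, and depth was from 21343389 to 26832535 reads in the NL retinas and from 18965090 to 23378090 in the LD retinas. A filter on low values kept the 24508 genes that reached 0.1 FPKM in 5 retinas or more. On these, LD was set against NL by limma on a log2 scale after adding 0.1 to each FPKM, and a gene was called changed at a Benjamini-Hochberg adjusted p under 0.01 and a change over 2-fold. The 10 rod and cone genes listed all fell. The retinas LD-4 and LD-6, NL-5 and NL-7, and LD-1 and LD-7 resembled each other more than any other pair did, with a chi-square per gene of 2.52, 2.71 and 3.41 against at least 10.9 for the rest. *Xist*, transcribed in females, was at 159 to 194 FPKM in NL-4, NL-8, LD-4 and LD-6 and at or under 0.118 FPKM in the other 6 retinas.

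The myeloid and phagocyte genes were higher after light damage nearly throughout the list. Of the 36 members, 33 had values above the filter, and 29 of these rose, 0 fell and 4 were not called. At an unadjusted p under 0.05 in limma, 33 were higher and 0 lower, and limma-voom on the recovered reads called 29 higher and 0 lower. Among all genes tested, 4.13% rose and 2.37% fell. The median log2 fold change of the 33 members was 1.91, while that of all 24508 genes was -0.01, and 15 members rose over 4-fold. In 29 members every LD retina lay above every NL retina, an order found in 11.8% of all genes, and the opposite order, found in 10.6% of all genes, was seen in 0 members. The filter itself let 5 members through by their LD values alone (*Lilrb4a*, *Fcgr2b*, *Msr1*, *Cybb* and *Plac8*), and of the other 28 members, 24 rose. Among those 28, *Ptprc*, *Cd84*, *Itgax*, *Clec7a*, *Ncf4* and *Rac2* had NL retinas under 0.1 FPKM. These too needed LD values to pass, and each is among the 24 that rose. They and the 5 above are all among the 29 members with every LD retina above every NL retina. The filter favoured that order in the 5, which also enter the unadjusted count and the median of 1.91. The 3 members under the filter were *Mrc1*, *Cd163* and *Ly6c2*. When the filter was dropped, all 36 could be fitted, their median log2 fold change was 1.88, and 35 of them had a positive one, *Cd163* being the exception.

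**Figure D1:**
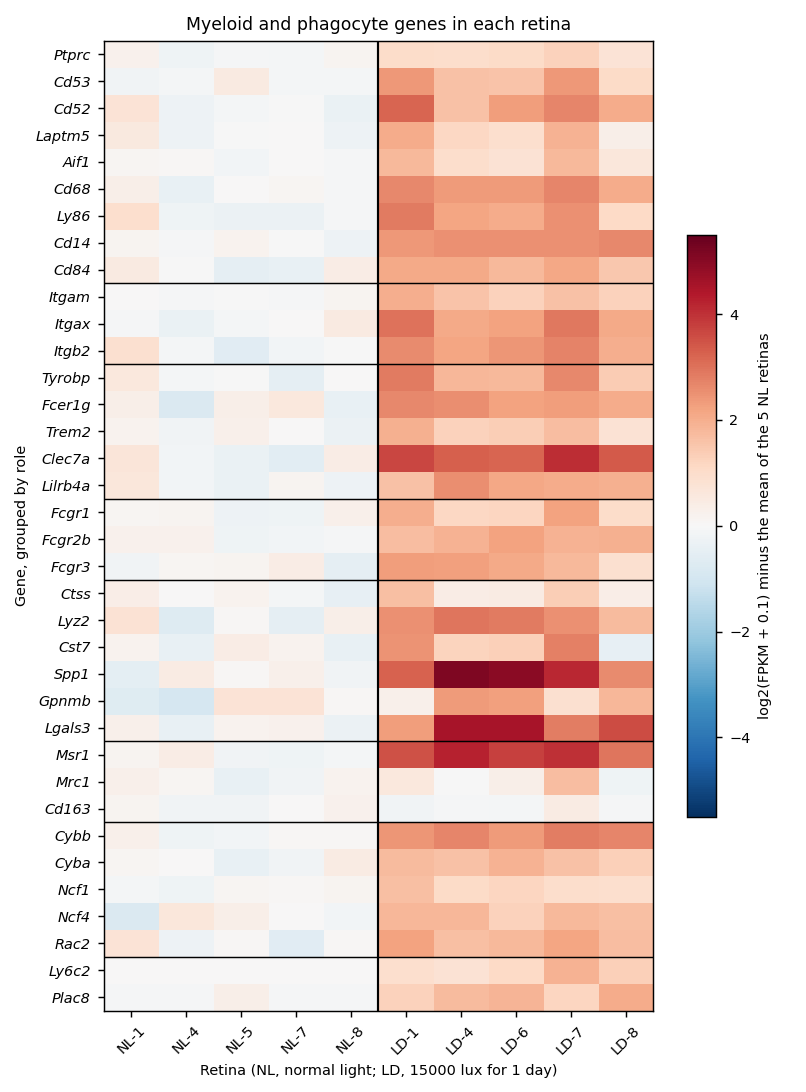
Level of each of the 36 members (rows, grouped by role) in each retina (columns), as log2(FPKM + 0.1) minus the mean of the 5 NL retinas, with red above and blue below that mean. The LD columns are red for nearly all rows, *Spp1*, *Lgals3*, *Msr1* and *Clec7a* being the darkest, and *Mrc1* and *Cd163* stay pale.

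Whole retina was sequenced, so a higher level cannot be split into more myeloid cells and more RNA per myeloid cell: the 2 cannot be told apart here. Summed over the 36 members, expression was 32.5 to 42.2 FPKM in the NL retinas and 133 to 291 FPKM in the LD retinas. *Spp1* and *Lgals3* made up 13.9 to 20.7% of that sum in NL and 25.7 to 64.9% in LD. Without them, the sum was 25.8 to 36.4 FPKM in NL and 76.4 to 134 FPKM in LD, so the groups lay apart either way.

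Promoter sequences are shown for the called members with the largest log2 fold changes among those at a mean of 1 FPKM or more in LD, which were *Spp1*, *Msr1*, *Lgals3* and *Clec7a*, as far as RefSeq's promoter table (GRCm38.p6) lists them. In them, 3 short motifs bound by factors known in myeloid genes were searched on both strands of the 250 bases before the start: AGGAAGT, the core of sites for PU.1 and other ETS factors, GAAANNGAA, an interferon response element core, and TGANTCA, the AP-1 site. The *Cybb* promoter was added after the search because it held the most matches, 4, of the members. Capitals mark matches, and a match is only a run of letters, not a measured site.

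*Spp1*, chr5:104434861-104435110, plus strand: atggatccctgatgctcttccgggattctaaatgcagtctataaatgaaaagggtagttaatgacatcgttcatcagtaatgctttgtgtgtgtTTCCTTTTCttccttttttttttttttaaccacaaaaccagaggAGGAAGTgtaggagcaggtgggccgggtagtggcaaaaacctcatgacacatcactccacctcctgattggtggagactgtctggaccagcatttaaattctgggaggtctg
*Clec7a*, chr6:129472780-129473029, minus strand: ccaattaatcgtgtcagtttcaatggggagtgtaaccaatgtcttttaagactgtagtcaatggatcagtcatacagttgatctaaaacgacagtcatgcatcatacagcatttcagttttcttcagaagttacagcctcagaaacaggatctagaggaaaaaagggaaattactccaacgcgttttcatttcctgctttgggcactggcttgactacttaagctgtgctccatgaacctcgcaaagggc
*Lgals3*, chr14:47373610-47373859, plus strand: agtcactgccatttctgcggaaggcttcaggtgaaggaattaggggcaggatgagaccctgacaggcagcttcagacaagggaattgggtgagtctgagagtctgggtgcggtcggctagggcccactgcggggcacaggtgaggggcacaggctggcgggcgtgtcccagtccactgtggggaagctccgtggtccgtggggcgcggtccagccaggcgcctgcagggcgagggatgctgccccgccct
*Cybb*, chrX:9469325-9469574, minus strand: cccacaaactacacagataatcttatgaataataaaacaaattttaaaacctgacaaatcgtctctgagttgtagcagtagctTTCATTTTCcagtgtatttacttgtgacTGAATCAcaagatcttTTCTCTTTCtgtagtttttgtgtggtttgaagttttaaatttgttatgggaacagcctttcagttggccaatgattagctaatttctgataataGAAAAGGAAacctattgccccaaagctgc

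The *Spp1* window held AGGAAGT 112 bases before the start and the interferon core on the minus strand, as TTCCTTTTC, 156 bases before it. In *Cybb* the interferon core was matched 29 bases before the start on the plus strand, as GAAAAGGAA, and 123 and 167 bases before it on the minus strand, and TGAATCA lay 139 bases before it. None of these matches overlapped another. The windows of *Clec7a* and *Lgals3* held none of the 3 motifs. The windows of *Lgals3* and *Cybb* lie within the span that the deposited table gives for these genes, so they precede an inner start.

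Of the 36 members, 28 were in the promoter table, which holds 27025 promoters. AGGAAGT was found in 7 of the 28 (*Ptprc*, *Mrc1*, *Cst7*, *Fcgr1*, *Spp1*, *Lyz2* and *Ly6c2*) and in 7.8% of all promoters. The interferon core was found in 6 (*Cd84*, *Ctss*, *Spp1*, *Ncf1*, *Aif1* and *Cybb*) and in 7.16% of all, and TGANTCA in 5 (*Cd84*, *Itgax*, *Cd68*, *Trem2* and *Cybb*) and in 6.87% of all.

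Several members are neighbours in the genome (GRCm38, as in the deposited table). *Itgam* (chr7:128062640-128118491) and *Itgax* (chr7:128129547-128150657) lie next to each other on the plus strand. *Fcgr2b* (chr1:170958617-170976547), *Fcgr3* (chr1:171051174-171064935), *Fcer1g* (chr1:171229572-171234365) and *Cd84* (chr1:171839697-171890718) share a stretch of chromosome 1. On chromosome 15, *Ncf4* (chr15:78244801-78262580) and *Rac2* (chr15:78559167-78572783) are close together, with *Ly6c2* (chr15:75108158-75111970) farther off.

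Of the 9 genes common to leukocytes or myeloid cells, 8 rose and *Laptm5* was not called. The change with the smallest error was that of *Cd14*, the co-receptor that hands bacterial lipopolysaccharide to Toll-like receptor 4. It stood at 0.773, 0.659, 0.815, 0.689 and 0.542 FPKM in the retinas NL-1, 4, 5, 7 and 8, and at 3.97, 4.36, 4.38, 4.38 and 4.77 FPKM in LD-1, 4, 6, 7 and 8, an order of retinas kept for all values that follow. Its 5 LD values lay close together and far above NL, with a log2 fold change of 2.50 ± 0.11 (SE, limma adjusted p = 1.65e-07). *Cd68*, a glycoprotein of the lysosome of macrophages, was at 2.23, 1.31, 1.80, 1.91 and 1.67 FPKM in NL and at 11.5, 9.22, 9.32, 11.9 and 7.54 FPKM in LD. The groups did not overlap, LD-8 was the lowest of the LD retinas, and the log2 fold change was 2.41 ± 0.15 (limma adjusted p = 1.96e-06).

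*Aif1*, which encodes IBA1, the actin-binding protein by which microglia are usually stained, was at 0.946, 0.922, 0.772, 0.892 and 0.835 FPKM in NL and at 3.21, 1.77, 1.58, 3.21 and 1.38 FPKM in LD. LD-1 and LD-7 stood well above the other 3 LD retinas, which were still above all NL retinas. It rose by 1.18 ± 0.24 on the log2 scale (limma adjusted p = 0.00392), a call lost without NL-5 (adjusted p = 0.0116), NL-7 (0.0101) or NL-8 (0.0105). *Ptprc*, the phosphatase CD45 of all leukocytes, was at 0.117, 0.0591, 0.0780, 0.0694 and 0.108 FPKM in NL and at 0.269, 0.267, 0.278, 0.343 and 0.209 FPKM in LD. Every LD value lay above every NL value, but at these low levels the pseudocount draws the fold change down, and its 1.00 ± 0.18 (limma adjusted p = 0.00171) sat on the threshold. The estimate went to 0.95 without NL-4, 0.99 without NL-5, 0.97 without NL-7, 0.99 without LD-6 and 0.94 without LD-7, each of which ended the call.

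The other 4 called genes of the group rose by 1.80 to 2.36 on the log2 scale. They were *Cd53*, a tetraspanin (1.80 ± 0.27), *Cd84*, a receptor of the SLAM family (1.91 ± 0.25), *Ly86*, the partner of RP105 also known as MD-1 (2.14 ± 0.35), and *Cd52*, a small glycoprotein anchored by lipid (2.36 ± 0.31), with limma adjusted p of 0.000583, 0.000253, 0.00104 and 0.000246. In *Ly86* and *Cd52*, NL-1 stood apart from the other NL retinas, at 0.966 FPKM against 0.339 to 0.427 and at 0.749 FPKM against 0.294 to 0.397. *Laptm5*, a lysosomal membrane protein of blood cells, was at 1.69, 0.907, 1.13, 1.17 and 0.931 FPKM in NL and at 4.97, 2.59, 2.27, 4.54 and 1.47 FPKM in LD. LD-8 fell below NL-1, and the log2 fold change of 1.27 ± 0.31 missed the threshold (limma adjusted p = 0.0118). Without LD-8 it was 1.5 with an adjusted p of 0.00284.

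All 3 integrin genes rose. *Itgam* encodes CD11b, *Itgax* CD11c and *Itgb2* the CD18 chain that pairs with both to form complement receptors 3 and 4. *Itgax* was at 0.0584, 0.0294, 0.0513, 0.0686 and 0.129 FPKM in NL and at 1.21, 0.606, 0.651, 1.13 and 0.589 FPKM in LD, a ratio of means of 12.4. The lowest LD retina was above the highest NL retina by a wide margin, and LD-1 and LD-7 were the highest (log2 fold change 2.45 ± 0.25, limma adjusted p = 5.48e-05). *Itgb2* rose from 0.735, 0.324, 0.194, 0.309 and 0.343 FPKM to 2.61, 1.96, 2.30, 2.88 and 1.72 FPKM (2.38 ± 0.26, limma adjusted p = 8.34e-05). NL-1 was the outlying NL retina, as it was for *Ly86* and *Cd52*. *Itgam* was at 0.141 to 0.185 FPKM in NL and at 0.510 to 0.922 FPKM in LD (1.55 ± 0.18, limma adjusted p = 0.000129).

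The adapters and the receptors that signal through tyrosine motifs rose in 5 of 5 cases. *Tyrobp* (DAP12) stood at 3.15, 1.98, 2.07, 1.48 and 2.15 FPKM in NL and at 16.0, 7.69, 7.57, 13.6 and 5.73 FPKM in LD. The lowest LD retina was still above the highest NL retina, with LD-1 and LD-7 on top (2.10 ± 0.29, limma adjusted p = 0.000335). *Fcer1g*, the Fc receptor gamma chain, was more even within LD, at 1.18, 0.485, 1.18, 1.46 and 0.665 FPKM in NL and at 6.24, 5.92, 4.65, 5.02 and 4.16 FPKM in LD (2.35 ± 0.26, limma adjusted p = 7.98e-05).

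*Trem2*, the lipid-sensing receptor that pairs with TYROBP, changed the least of the 5. It was at 0.282 to 0.478 FPKM in NL and at 1.74, 1.07, 1.12, 1.45 and 0.736 FPKM in LD (1.42 ± 0.23, limma adjusted p = 0.000956). *Clec7a*, the beta-glucan receptor dectin-1, which carries a tyrosine motif in its own tail, changed the most. It was at 0.142, 0.0357, 0.0187, 0 and 0.103 FPKM in NL, at most 8 reads, and at 1.80, 1.38, 1.30, 2.43 and 1.45 FPKM in LD, 74 to 146 reads. The LD mean of 1.67 ± 0.464 FPKM (SD, n = 5) was 28 times the NL mean, and the log2 fold change was 3.52 ± 0.28 (limma adjusted p = 8.90e-06). *Lilrb4a*, an inhibitory receptor, was at 0 to 0.0984 FPKM in NL and at 0.298 to 0.670 FPKM in LD (2.07 ± 0.25, limma adjusted p = 0.000152). Its near-identical neighbour *Lilr4b* was at 0 to 0.0173 FPKM in NL and 0.219 to 0.512 FPKM in LD, and reads of the pair may have been split between them.

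Each of the 3 Fc gamma receptors rose. *Fcgr1*, the high-affinity receptor, was at 0.438 to 0.689 FPKM in NL and at 2.53, 1.35, 1.4, 2.95 and 1.21 FPKM in LD (1.52 ± 0.26, limma adjusted p = 0.00134). *Fcgr2b*, the inhibitory receptor, had 0 to 5 reads in NL and 40 to 59 in LD, or 0 to 0.0407 FPKM against 0.283 to 0.455 FPKM (1.93 ± 0.18, limma adjusted p = 3.05e-05). *Fcgr3*, an activating receptor that signals through FCER1G, was at 0.112 to 0.298 FPKM in NL and at 1.37, 1.31, 1.16, 0.910 and 0.440 FPKM in LD (1.86 ± 0.30, limma adjusted p = 0.000945). Activating and inhibitory receptors were thus both higher, without overlap between the groups.

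**Figure D2:**
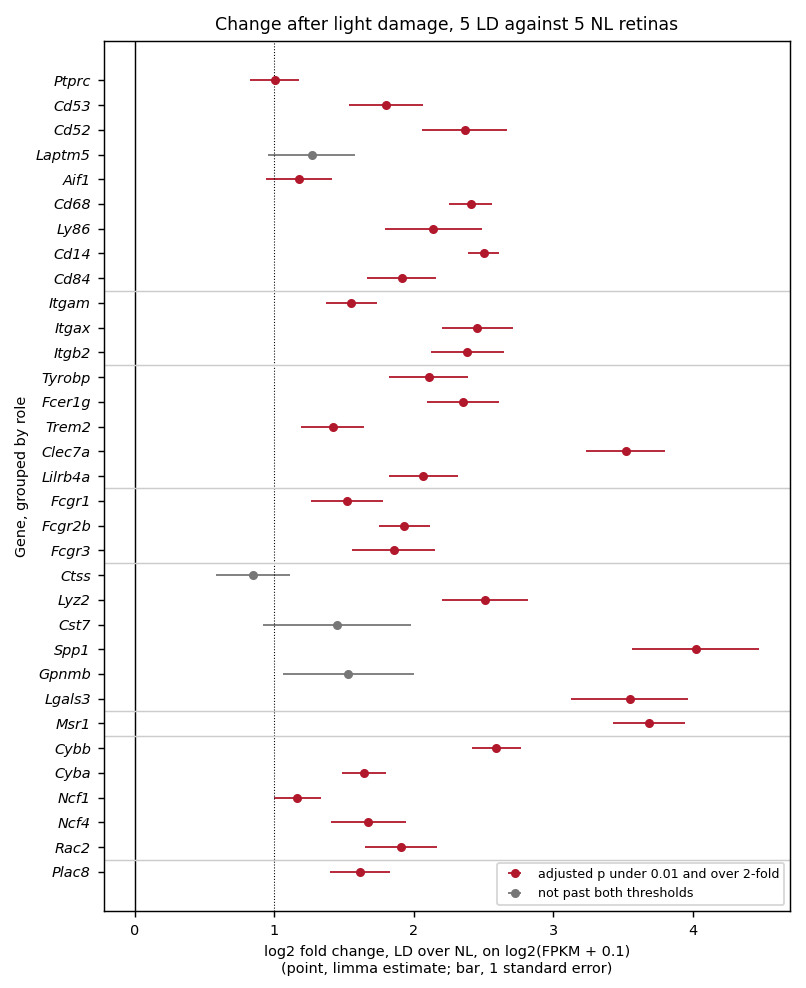
log2 fold change of LD over NL on log2(FPKM + 0.1) for the 33 members past the filter (points, limma estimates; bars, 1 standard error; 5 LD against 5 NL retinas), with the dotted line at a 2-fold change. The estimates run from 0.85 for *Ctss* to 4.02 for *Spp1*, all to the right of 0, and grey marks the 4 members not called.

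Of the 6 lysosomal and activated-phagocyte genes, 3 rose and 3 were not called. *Spp1*, the secreted phosphoprotein osteopontin, had the largest log2 fold change of the 33 members. It stood at 2.21, 4.43, 3.38, 3.92 and 2.80 FPKM in NL and at 31.6, 119, 104, 60.1 and 20.2 FPKM in LD, 742 to 3967 reads. All LD retinas lay above all NL retinas, but they spread widely among themselves, with LD-4 and LD-6 the highest and LD-8 the lowest (4.02 ± 0.45, limma adjusted p = 9.73e-05). *Lgals3*, the galectin that binds damaged lysosomes and marks activated macrophages, had the same 2 retinas on top. It was at 3.67, 2.20, 3.37, 3.55 and 2.36 FPKM in NL and at 14.9, 70.3, 71.3, 21.2 and 36.6 FPKM in LD (3.55 ± 0.42, limma adjusted p = 0.000129). Both genes can also be made outside the myeloid lineage, *Spp1* by ganglion cells and *Lgals3* by reactive glia. *Vim*, an intermediate filament gene of Müller glia, stood at 75.4, 121, 120, 85.4 and 117 FPKM in the LD retinas, and *Gfap*, another, at 81.7, 127, 127, 95.4 and 62.6 FPKM. The part of these cells in the level of *Spp1* and *Lgals3* was not tested.

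*Lyz2*, the lysozyme of macrophages and neutrophils, was at 2.63, 0.859, 1.53, 1.00 and 1.86 FPKM in NL and at 8.76, 11.7, 11.3, 8.87 and 5.05 FPKM in LD (2.51 ± 0.31, limma adjusted p = 0.000171). Its groups did not overlap, and its close relative *Lyz1* had at most 2 reads in any retina. *Ctss*, cathepsin S, was the most abundant member in NL and was the least changed. It stood at 12.1, 9.67, 10.7, 8.64 and 6.91 FPKM in NL and at 29.9, 12.5, 13.1, 24.2 and 12.0 FPKM in LD, so LD-1 and LD-7 were high and LD-8 fell just under NL-1 (0.85 ± 0.27, limma adjusted p = 0.0380).

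*Cst7*, cystatin F, an inhibitor of lysosomal proteases, was at 0.711, 0.430, 0.849, 0.717 and 0.432 FPKM in NL and at 3.78, 1.55, 1.63, 4.68 and 0.410 FPKM in LD. LD-8 lay under every NL retina while the other 4 LD retinas were above all of them (1.45 ± 0.53, limma adjusted p = 0.0659). Without LD-8 the estimate was 1.93 and passed (limma adjusted p = 0.00356). *Gpnmb*, a glycoprotein of macrophages and pigment cells, was at 1.36, 1.12, 3.79, 3.79 and 2.29 FPKM in NL and at 2.73, 11.7, 11.0, 4.12 and 8.15 FPKM in LD. LD-1 lay within the NL range, and the log2 fold change of 1.53 ± 0.47 was not called (limma adjusted p = 0.0330).

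Among the scavenger and perivascular macrophage receptors, *Msr1* rose and the other 2 members were under the filter. *Msr1*, the class A scavenger receptor for modified lipoproteins, was at 0.0590, 0.0890, 0.0233, 0.0223 and 0.0306 FPKM in NL, 3 to 12 reads, and at 1.52, 2.55, 1.85, 2.18 and 0.992 FPKM in LD, 140 to 328 reads. The LD mean was 40.5 times the NL mean and the log2 fold change was 3.68 ± 0.26 (limma adjusted p = 3.34e-06). *Mrc1*, the mannose receptor of perivascular macrophages, was at 0.00773 to 0.0734 FPKM in NL and at 0.109, 0.0387, 0.0772, 0.351 and 0.0212 FPKM in LD. Only LD-7, with 51 reads, stood out, and the groups overlapped (two-sided exact permutation test, p = 0.230). Fitted without the filter it had a log2 fold change of 0.47 ± 0.33 (limma adjusted p = 0.423). *Cd163*, the haemoglobin scavenger receptor, had at most 5 reads in NL and 7 in LD, with the highest value again in LD-7. No difference was detected for *Mrc1*, whose LD retinas spread widely at low reads, or for *Cd163*, which had too few reads to show one.

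All 5 NADPH oxidase members rose. *Cybb* and *Cyba* encode gp91phox and p22phox, the membrane subunits, *Ncf1* and *Ncf4* encode p47phox and p40phox of the cytosolic part, and *Rac2* encodes the small GTPase that completes the complex. *Cybb* was at 0.0805, 0.0243, 0.0339, 0.0568 and 0.0534 FPKM in NL, at most 10 reads, and at 0.706, 0.866, 0.646, 0.945 and 0.843 FPKM in LD, 84 to 125 reads. The ratio of means was 16.1, and the log2 fold change was 2.59 ± 0.18 (limma adjusted p = 3.09e-06). *Cyba*, whose product also serves other NADPH oxidases, was the most abundant, at 3.65, 3.44, 2.56, 2.95 and 4.70 FPKM in NL and at 11.5, 10.7, 13.1, 10.6 and 8.56 FPKM in LD (1.64 ± 0.16, limma adjusted p = 3.27e-05). Neither gene had groups that overlapped.

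*Rac2* stood at 0.0607 to 0.316 FPKM in NL and at 0.683 to 1.04 FPKM in LD (1.91 ± 0.26, limma adjusted p = 0.000327). *Ncf4* was at 0.0231 to 0.233 FPKM in NL and at 0.420 to 0.670 FPKM in LD (1.67 ± 0.27, limma adjusted p = 0.000970). *Ncf1* was at 0.463 to 0.646 FPKM in NL and at 1.18 to 1.99 FPKM in LD (1.16 ± 0.17, limma adjusted p = 0.000492). *Ncf1* overlaps *Gtf2ird2* on the opposite strand, and the library kit does not keep strand, so reads in the overlap cannot be told apart. *Gtf2ird2* itself was at 6.89 to 8.21 FPKM in NL and 6.99 to 8.10 FPKM in LD. Of 11 further genes of NADPH oxidases, 6 were above the filter and 1 rose, *Nckap1l*, also known as HEM1, a regulator of actin in blood cells (1.00 ± 0.14, limma adjusted p = 0.000380).

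The 2 monocyte members were at the limit of detection in NL. *Ly6c2*, which encodes the Ly6C antigen of inflammatory monocytes, had 0 reads in every NL retina and 4 to 17 reads in LD, or 0.0898, 0.0720, 0.114, 0.272 and 0.148 FPKM. Set against the level of 3 reads in a library, taken here as the floor for a count of 0, its LD mean was 2.78-fold higher. *Plac8* had 0 reads in 4 NL retinas and 1 in NL-5, and 5 to 12 reads in LD, or 0.155, 0.248, 0.281, 0.138 and 0.339 FPKM. Its LD mean was 2.69-fold the level of 3 reads, the same floor although NL-5 had 1 read, and it passed the test (limma adjusted p = 0.000323). These floors cover counting error only. *Ly6c1*, nearly identical to *Ly6c2* and also expressed by blood vessels, was at 2.70 to 3.21 FPKM in NL and at 3.43 to 7.94 FPKM in LD, and reads may have been exchanged between the pair.

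**Figure D3:**
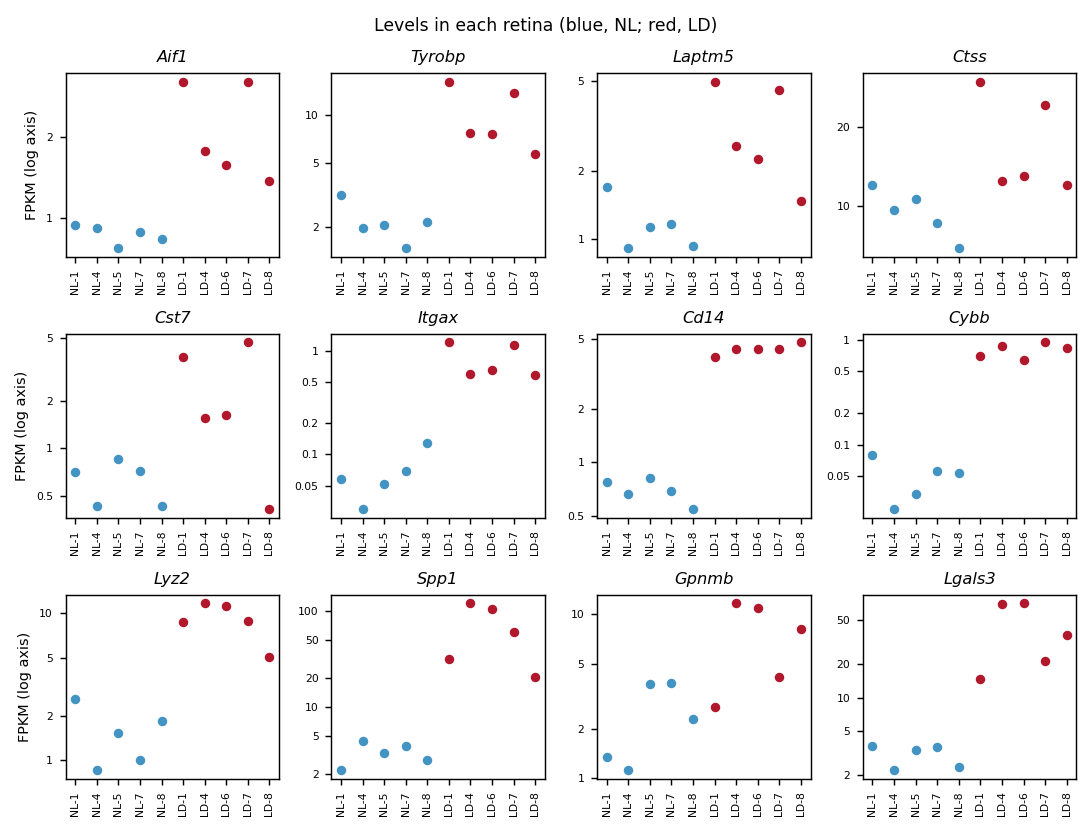
FPKM of 12 members in each retina on log axes (blue, the 5 NL retinas; red, the 5 LD retinas; each point is 1 retina). LD-1 and LD-7 are highest of the LD retinas for *Aif1*, *Tyrobp*, *Laptm5*, *Ctss*, *Cst7* and *Itgax*, LD-4 and LD-6 are highest for *Lyz2*, *Spp1*, *Gpnmb* and *Lgals3*, and the LD retinas lie close together for *Cd14* and *Cybb*.

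The LD retinas did not carry the members in equal measure, and the members fell into different orders. LD-1 and LD-7 were both above the other 3 LD retinas for 17 of the 33 members (51.5%), namely *Cd53*, *Cd52*, *Laptm5*, *Aif1*, *Cd68*, *Ly86*, *Cd84*, *Itgam*, *Itgax*, *Itgb2*, *Tyrobp*, *Trem2*, *Clec7a*, *Fcgr1*, *Ctss*, *Cst7* and *Rac2*. This order was found in 21.6% of all genes tested and in 25.6% of the genes that rose. LD-4 and LD-6 were both above the others for 5 members (15.2%), *Lilrb4a*, *Lyz2*, *Spp1*, *Gpnmb* and *Lgals3*, against 19.99% of all genes and 37.5% of those that rose. LD-8 was the lowest LD retina for 22 of the 33 members and for 17.9% of all genes. These are also the pairs that resembled each other most over all genes. When the 3 closest pairs were averaged before the fit, 22 members were called, and those lost were *Ptprc*, *Aif1*, *Ly86*, *Trem2*, *Fcgr1*, *Fcgr3* and *Ncf4*.

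LD-4 and LD-6, highest for *Spp1* and *Lgals3*, were the lowest LD retinas for 10 of the 10 rod and cone genes, while the highest was LD-1 for 6 of these genes and LD-8 for 4. LD-4 and LD-6 were also the only LD retinas with *Xist*, at 159 and 164 FPKM, against at most 0.0229 FPKM in LD-1, LD-7 and LD-8. The parts of photoreceptor loss and of sex in these orders were not tested. Among the NL retinas, NL-1 was the highest for 16 of the 33 members and for 21.2% of all genes. NL-1 and NL-8 also had the most RNA of the pigment cell genes *Pmel* (2.02 and 8.69 FPKM, against 0.596 to 0.863 FPKM in the other 3) and *Tyrp1* (4.23 and 7.70 FPKM, against 0.550 to 1.32 FPKM), and in LD the values were 0.441 to 0.968 and 0.556 to 1.23 FPKM. The part of adjoining tissue in the members' NL levels was not tested.

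Markers of microglia at rest had smaller changes, and most of them were not called. *Csf1r*, the receptor on which microglia depend, was at 4.11, 2.51, 2.49, 2.37 and 2.82 FPKM in NL and at 7.69, 4.10, 4.04, 6.14 and 3.09 FPKM in LD, with LD-4, LD-6 and LD-8 below NL-1 (0.74 ± 0.24, limma adjusted p = 0.0412). *P2ry12*, the purinergic receptor of resting microglia, was at 1.63, 2.20, 2.19, 2.29 and 1.86 FPKM in NL and at 2.38, 0.833, 1.11, 1.76 and 0.529 FPKM in LD (-0.74 ± 0.33, limma adjusted p = 0.122). *Tmem119* overlapped between the groups at 1.29 to 2.20 and 1.18 to 2.64 FPKM (0.22 ± 0.23, limma adjusted p = 0.528). Of the 14 homeostatic microglia genes listed, all above the filter, 3 rose and 0 fell, with a median log2 fold change of 0.67. At an unadjusted p under 0.05 in limma, 8 were higher and 1, *P2ry12*, was lower, and limma-voom called 3 higher and 0 lower. They included *Fcrls*, a scavenger receptor-like gene of microglia (3.18 ± 0.41), and *Cx3cr1*, the fractalkine receptor (1.14 ± 0.17), with limma adjusted p of 0.000233 and 0.000616. Some of these markers overlap other genes, and reads in the overlaps cannot be told apart. *Csf1r* overlaps *Hmgxb3* (mean 9.4 FPKM), *P2ry12* overlaps *Med12l* (3.35 FPKM), and *Cx3cr1* overlaps several genes, among them *Gorasp1* (10.4 FPKM). The part of such reads in the size of the markers' changes was not tested.

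Set against *Csf1r* in the same retina, most members remained apart between the groups. Reads of *Hmgxb3* in the overlap may enter the *Csf1r* value of each ratio. The ratio of the member's FPKM to that of *Csf1r* was higher in every LD retina than in every NL retina for 25 of the 33 members, and overlapped for 8 (*Ptprc*, *Laptm5*, *Ctss*, *Cst7*, *Gpnmb*, *Cyba*, *Ncf1* and *Ncf4*). The 25 include *Lilrb4a*, *Fcgr2b*, *Msr1*, *Cybb* and *Plac8*, which passed the filter by their LD values alone. For these 5 the filter favoured a higher ratio in LD. A higher ratio in every LD retina held for 2.01% of all genes tested and the opposite order for 11.6%, *Csf1r* itself being higher in most LD retinas than in most NL retinas. The median ratio was 32.8 times higher in LD for *Msr1*, 23.7 times for *Clec7a*, 13.2 times for *Lgals3*, 7.82 times for *Itgax* and 7.21 times for *Spp1*. *Msr1*, *Clec7a* and *Itgax* had at most 12, 8 and 16 reads in NL, and each needed LD values to pass the filter. The median ratio was 1.07 times higher for *Ctss*, 1.39 times for *Aif1* and 1.84 times for *Trem2*. For *Tyrobp* the ratio was 0.625 to 0.830 in NL and 1.85 to 2.22 in LD.

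**Figure D4:**
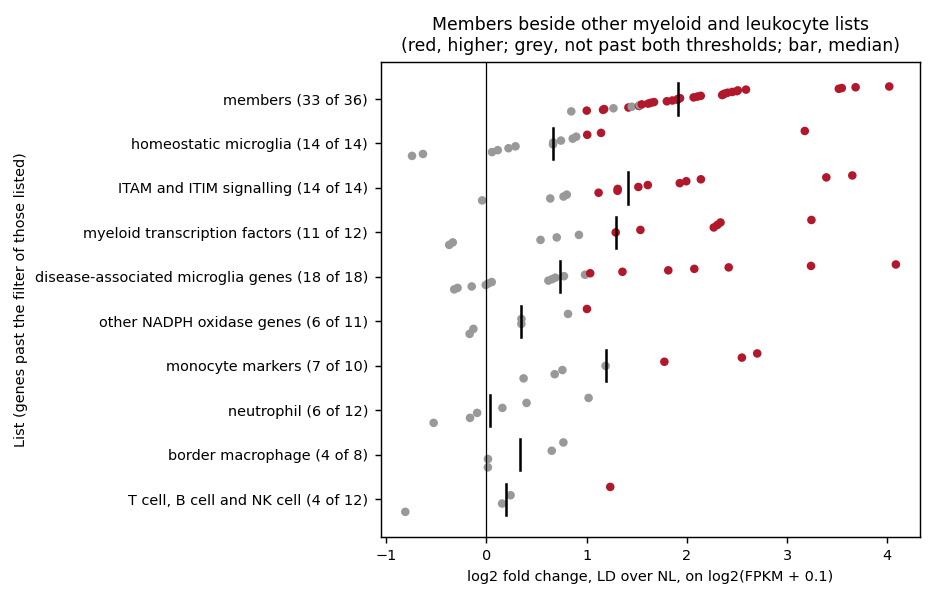
log2 fold changes of LD over NL on log2(FPKM + 0.1) for the members and 9 other lists of myeloid and leukocyte genes (points, genes past the filter; red, called higher; grey, not past both thresholds; black bar, median of the list). The members' median of 1.91 lies to the right of those of homeostatic microglia (0.67), signalling genes (1.41) and transcription factors (1.29), and the neutrophil and border macrophage lists hold no red point.

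Of 14 genes that act downstream of activating or inhibitory tyrosine motifs, 10 rose and 0 fell, with a median log2 fold change of 1.41. *Fgr*, a kinase of the Src family, went from 0.206, 0.0244, 0.0765, 0.0244 and 0.221 FPKM to 3.72, 1.4, 1.59, 3.48 and 2.33 FPKM (3.65 ± 0.37, limma adjusted p = 5.14e-05), with LD-1 and LD-7 again on top. *Pik3ap1*, an adapter that links receptors to PI3-kinase, went from 0.340 to 0.490 FPKM in NL to 3.95 to 7.03 FPKM in LD (3.39 ± 0.16, limma adjusted p = 2.07e-07). Of 12 myeloid transcription factors, 11 were above the filter and 6 rose, and at an unadjusted p under 0.05 in limma 8 were higher and 2 lower. *Spi1*, which encodes PU.1, was at 0.122 to 0.468 FPKM in NL and 1.37 to 2.23 FPKM in LD (2.34 ± 0.26, limma adjusted p = 9.54e-05), and *Irf8* was at 0.293 to 0.471 and 3.48 to 5.35 FPKM (3.24 ± 0.15, limma adjusted p = 1.67e-07).

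Most other receptors of the members' families were scarcely detected. Of 21 further Fc, Trem, Lilr, Cd300 and C-type lectin receptors listed, 19 were in the table, 5 were above the filter and 4 rose, led by *Cd300lf* (1.48 ± 0.21, limma adjusted p = 0.000481) and *Fcgr4* (1.45 ± 0.31, limma adjusted p = 0.00566). Of 16 other scavenger receptors and genes that recognise dying cells, 12 were above the filter and 2 rose. These were *Axl*, a receptor tyrosine kinase for opsonised apoptotic cells, at 2.08 to 2.95 FPKM in NL and 12.7 to 14.6 FPKM in LD (2.53 ± 0.09, limma adjusted p = 4.19e-08), and *Pros1*, which encodes protein S, a bridging ligand of the related receptors TYRO3 and MERTK (1.64 ± 0.11, limma adjusted p = 3.18e-06). *Gas6*, which encodes the ligand of AXL, was at 74.5 to 86.6 FPKM in NL and at 50.8 to 60.6 FPKM in LD, under the 2-fold limit (-0.57 ± 0.07, limma adjusted p = 0.000137). Over those 12 genes, 6 were higher and 2 lower at an unadjusted p under 0.05 in limma. Of 18 further genes associated with microglia in disease, 7 rose and 0 fell, led by *Ch25h*, a cholesterol hydroxylase (4.09 ± 0.68, limma adjusted p = 0.00123), and *B2m*, the light chain of MHC class I (3.24 ± 0.16, limma adjusted p = 3.50e-07). In limma at an unadjusted p under 0.05, 12 of the 18 were higher and 3 lower. Every LD retina lay below every NL retina in 2 of the 18. Several of these genes are also expressed by other retinal cells.

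Markers of other leukocytes were mostly low. Among 10 monocyte markers, 7 were above the filter and 3 rose, led by *Ly6a* (2.70 ± 0.38, limma adjusted p = 0.000389), which endothelium also expresses, and *Ms4a6c* (2.55 ± 0.25, limma adjusted p = 3.48e-05). At an unadjusted p under 0.05 in limma, 5 of the 7 were higher and 0 lower, and limma-voom called 3 higher and 0 lower. *Ccr2*, the receptor by which monocytes follow CCL2, was at 0 to 0.00729 FPKM in NL, at most 1 read, and at 0.0121, 0.0803, 0.112, 0.0195 and 0.140 FPKM in LD, 2 to 21 reads. *Ccr2* was higher in every LD retina than in every NL retina, although at few reads. Its highest LD values were in LD-4, LD-6 and LD-8, not in LD-1 and LD-7. The monocyte list summed to 2.13 to 5.35 FPKM in NL and 8.98 to 27.3 FPKM in LD, most of which was *Ly6a*, and without that gene the sums were 0.449 to 2.01 and 2.20 to 3.39 FPKM.

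Of 12 neutrophil markers, 6 were above the filter and 0 rose or fell in limma or limma-voom, while at an unadjusted p under 0.05 *S100a8* was higher and *Ngp* lower. *S100a8* had at most 3 reads in NL and 6 in LD (limma adjusted p = 0.121), *S100a9* at most 3 and 4 (limma adjusted p = 0.792), and *Ly6g* at most 3 and 2. The neutrophil list summed to 5.35 to 7.62 FPKM in NL and 5.70 to 6.83 FPKM in LD, most of which was *Mmp9*, a protease gene not particular to neutrophils, and without it the sums were 0.909 to 1.46 and 0.923 to 2.24 FPKM. Of 8 markers of border macrophages, 4 were above the filter and 0 were called in limma or limma-voom, with 1, *Stab1*, higher at an unadjusted p under 0.05. *Lyve1* was at 5.66 to 7.85 and 5.28 to 9.0 FPKM and *Pf4*, a platelet and macrophage chemokine, at 0 to 0.108 and 0 to 0.558 FPKM. That list summed to 6.71 to 8.84 FPKM in NL and 7.30 to 10.1 FPKM in LD, and without *Lyve1* to 0.989 to 1.39 and 1.06 to 2.37 FPKM. Of 12 markers of T, B and NK cells, 4 were above the filter and 1 rose, *Lck* (1.24 ± 0.19, limma adjusted p = 0.000817), while *Cd3e* had at most 1 read in any retina, *Cd3d* and *Cd3g* at most 3 and 4, and *Cd79a* was at 0.186 to 0.647 and 0 to 0.394 FPKM.

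Other cells of the retina changed too. Of 7 genes of Müller glia and astrocytes, 2 rose, *Gfap* from 7.24 to 23.1 FPKM in NL to 62.6 to 127 FPKM in LD (3.20 ± 0.32, limma adjusted p = 3.90e-05) and *Vim* (2.02 ± 0.18, limma adjusted p = 2.16e-05), and *Glul*, glutamine synthetase, fell by 2.09 (SE 0.10, limma adjusted p = 1.99e-07). None of the 4 red blood cell genes, 7 vessel genes, 9 pigment cell genes and 7 ganglion cell genes above the filter was called by limma or limma-voom, and at an unadjusted p under 0.05 in limma 3 red blood cell genes and 1 pigment cell gene were lower and 2 vessel genes higher. The share of the members' RNA that each cell type supplied was not tested.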

How the data were processed

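For the 10 neural retinas the authors deposited FPKM values, normalised by a sequencing company, in a table with gene positions and lengths. The submitters' notes name mm8, Bowtie2 2.0.6 and TopHat2 2.0.9 without their roles, while 54495 of the 54532 identifiers are in GENCODE M21 (GRCm38) and 53585 have its position. How reads were counted is not given in the sources used here. FPKM times gene length gave whole reads for 100% of values (tolerance 0.01 of a read), after a factor per retina of 0.951 to 0.968 in NL and 1.041 to 1.069 in LD. Groups come from the sample titles. log2(FPKM + 0.1) was fitted with limma 3.58.1 (R 4.3.3) with an intensity trend and no block, and p-values were adjusted by the Benjamini-Hochberg method over 24508 genes. Single genes were compared by two-sided exact permutation tests in scipy 1.17.1, whose smallest p for 5 against 5 is 0.00794. The fit was tested on simulated data, where recovery was required only of genes with more reads than many members had in NL. Fold changes on this scale understate those of low genes. All members are named, and from each other list the 2 highest and the 1 lowest called gene with at least 0.3 FPKM in a group and fixed defining markers, plus genes singled out after their values were seen (*Gas6*, *Mmp9*, *Cd3d*, *Cd3g*, *Ngp*, *Stab1*, *Pmel* and *Tyrp1*). The members and lists were chosen with earlier results of these data known. Some genes are not reported here. Alternatives changed the pseudocount, filter, scaling, trend, test, threshold, block, covariate and retinas. If retinas shared a mouse, p-values measure in part technical spread.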

Additional observations from a re-analysis of the deposited data

Results flagged for a closer look

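In 7 of the 72 groups of 5 values (36 members, NL and LD), the highest retina lay farther from the rest than Dixon's 95% limit allows. The highest and the lowest retina were both tested, for which chance gives about 3.6 groups if the groups are independent. The members share their retinas, so they are not. NL-1 was the outlying retina for *Cd52* (0.749 FPKM, others 0.294 to 0.397), *Ly86* (0.966 FPKM, others 0.339 to 0.427) and *Itgb2* (0.735 FPKM, others 0.194 to 0.343), and NL-5 for *Cd53* (0.82 FPKM, others 0.483 to 0.514). LD-7 was the outlying retina for *Mrc1* (0.351 FPKM or 51 reads, others 0.0212 to 0.109) and *Cd163* (0.0563 FPKM or 7 reads, others 0 to 0.00903). *Plac8* in NL-5 (0.0309 FPKM) rests on 1 read, the other 4 NL retinas being at 0.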

How the results depend on the processing

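The 29 calls among the members became 14 with a pseudocount of 1, 17 with a filter of 1 FPKM that left 19 members, 22 with the 3 closest pairs averaged, and 27 to 31 when each retina was left out in turn. Over all genes the 1595 calls became 816 with a pseudocount of 1, 6818 at an adjusted p under 0.05 with no minimum fold change, 1076 with the closest pairs averaged, and 1379 to 1603 without 1 retina. Within the 4 replicate numbers that both groups share, the replicate block gave 14 members and 808 genes, against 27 members and 1182 genes without the block on the same 8 retinas. Whether the numbers pair the retinas is not known. Same-numbered retinas deviated together with r of -0.089 to 0.066, which cannot show that they share no origin. The 745 alternative log2 fold changes of members held 0 reversals. Of the 29 called members, 10 were called under every setting that tested them: *Cd52*, *Cd68*, *Cd14*, *Itgb2*, *Tyrobp*, *Fcer1g*, *Clec7a*, *Spp1*, *Msr1* and *Cyba*. FPKM without the factor per retina moved the median of all genes to 0.11, with 72.1% of calls higher against 63.5%. Members at a few reads limit what the depth can show, above all *Mrc1*, *Cd163*, *Ly6c2* and *Plac8*.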
